A study of Homo sapiens with 8 samples.

Results

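Expression of 10 members of the BCL2 family of apoptosis regulators (BCL2, BCL2L1, MCL1, BAX, BAK1, BCL2L11, BBC3, PMAIP1, BID and BIK) was examined in prostate cancer cells with raised or lowered MYCL. The members were taken by gene name from a gene count table of 78691 genes, in which each name had 1 row, and all 10 passed the filter on low counts in every comparison. Poly(A) RNA of 2 human prostate cancer cell lines had been sequenced in 8 libraries, 2 per group. C4-2B, an androgen receptor-positive adenocarcinoma line, carried either an empty vector (C4-2B control) or a lentiviral MYCL transgene (C4-2B MYCL). By the study's methods this transgene was driven by the EF1A promoter and also expressed EGFP, and infected cells were selected with puromycin or sorted, with no clone described. NCI-H660, a neuroendocrine prostate cancer line, was transduced with a non-targeting shRNA (shCtrl) or with shRNA against MYCL (shMYCL). The sources name an adenoviral vector in one place and stable expression in another for this knockdown, so the time since transduction is not known. The C4-2B control libraries are labelled as biological replicates and the libraries of the other 3 groups only as replicates, so p-values measure the spread between the deposited libraries, which may in part be technical.

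Proteins of the BCL2 family decide whether the outer mitochondrial membrane is opened during apoptosis. The effectors BAX and BAK1 form the pores that release cytochrome c, the anti-apoptotic members BCL2, BCL2L1 (BCL-XL) and MCL1 bind and restrain them, and the BH3-only proteins BCL2L11 (BIM), BBC3 (PUMA), PMAIP1 (NOXA), BID and BIK occupy the anti-apoptotic members or engage the effectors directly. PMAIP1 binds chiefly MCL1, whereas BCL2L11 and BBC3 bind all the main anti-apoptotic members. Neuroendocrine cancers such as small cell lung cancer are known for high BCL2.

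Library totals ranged from 15177071 to 32344170 counts. MYCL reached a mean of 1399 TPM (SD 50.4, n = 2; TPM are counts per gene length scaled to a common sum) in C4-2B MYCL against 5.93 TPM (SD 0.65, n = 2) in C4-2B control, and fell from 56.2 TPM (SD 11.4, n = 2) in NCI-H660 shCtrl to 6.59 TPM (SD 0.58, n = 2) in shMYCL. On the TPM scale the transgene level was thus 24.9 times the level of NCI-H660 shCtrl cells. In CPM, read counts scaled by library size as described below, the means were 3987 (SD 360, n = 2) and 93.0 (SD 15.9, n = 2). The ratio was larger in CPM than in TPM, so its size depends on the scale. All 8 luminal markers checked reached 1 TPM in both C4-2B groups, and in NCI-H660 3 of the 8 did, with KLK2 and KLK3 at 0. All 7 neuroendocrine markers reached 1 TPM in NCI-H660 and 1 of the 7 in C4-2B. Their summed level was 1068 to 1218 TPM in shCtrl and 799 to 889 TPM in shMYCL. No leukocyte marker of 4 reached 1 TPM in any group. Of 3 endothelial markers 1 reached 1 TPM in C4-2B MYCL and 1 in shCtrl, and none did in C4-2B control or shMYCL. Of 5 fibroblast markers 1 reached 1 TPM in both C4-2B groups, 3 did in shCtrl and 2 in shMYCL, with summed levels of 39.4 to 44.7 TPM in shCtrl and 26.3 to 27.1 TPM in shMYCL. The part of these shifts in the results below was not tested.

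The members covered a wide range of transcript levels, and their order differed between the lines. In C4-2B control the anti-apoptotic MCL1, a short-lived protein that sequesters BAK1 and PMAIP1, stood first at 62.8 TPM (SD 1.30, n = 2), followed by BCL2L1 at 50.2 TPM (SD 0.94) and the effector BAX at 35.4 TPM (SD 4.90). BID, at 18.3 TPM (SD 1.32), and BAK1, at 17.5 TPM (SD 1.84), overlapped in their libraries and were not separated. BIK followed at 11.1 TPM (SD 1.04), BCL2L11 at 9.21 TPM (SD 0.088), PMAIP1 at 4.20 TPM (SD 0.14), BBC3 at 1.14 TPM (SD 0.011) and BCL2 at 0.242 TPM (SD 0.071). In C4-2B MYCL the order was the same except that PMAIP1, at 13.5 TPM (SD 0.97), stood above both BIK, at 11.3 TPM (SD 0.50), and BCL2L11, at 5.18 TPM (SD 1.04). MCL1, at 52.5 TPM (SD 5.46), no longer stood apart from BCL2L1, at 50.1 TPM (SD 0.38).

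In NCI-H660 shCtrl MCL1 was again first, at 144 TPM (SD 8.83) and was followed by PMAIP1, at 128 TPM (SD 1.72), and by BCL2, at 69.3 TPM (SD 14.5), which held the last place in C4-2B control. BAX was at 54.8 TPM (SD 4.82) and BCL2L1 at 44.7 TPM (SD 0.30). BCL2L11, at 27.8 TPM (SD 0.96), and BID, at 26.6 TPM (SD 3.75), overlapped, and BAK1, BBC3 and BIK closed the order at 12.6, 5.32 and 3.11 TPM. In shMYCL PMAIP1, at 155 TPM (SD 3.49), and MCL1, at 153 TPM (SD 2.32), overlapped, and BAX, at 66.8 TPM (SD 6.35), stood above BCL2, at 44.5 TPM (SD 0.91). BCL2L11 and BID overlapped there too.

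**Figure D1:**
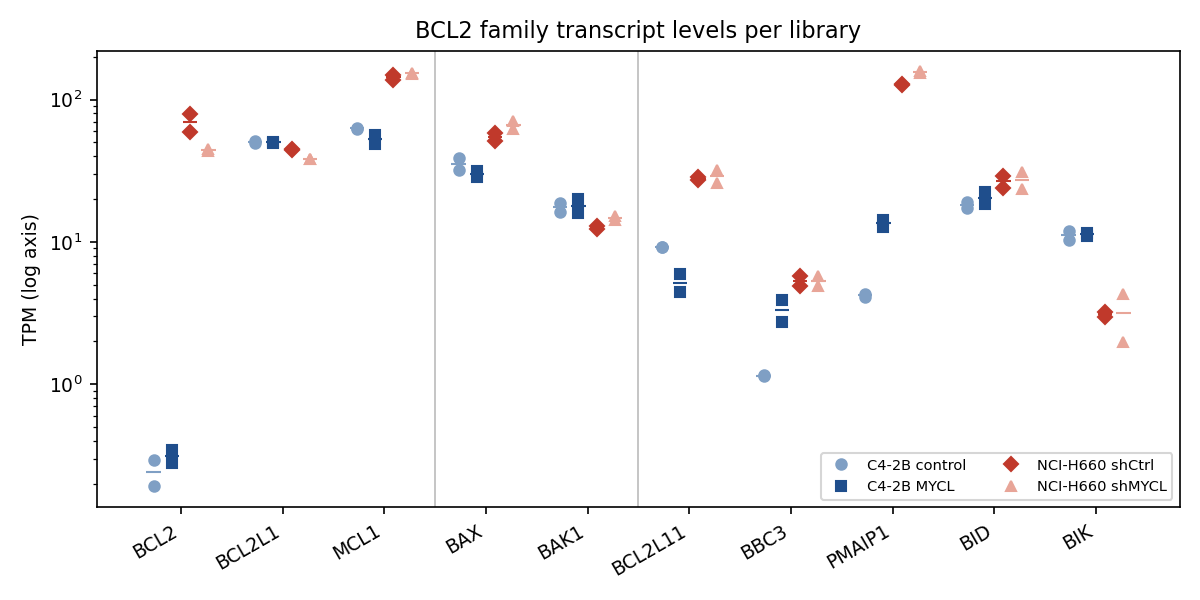
Transcript levels of the 10 members in TPM on a log axis, 1 point per library and a short line at the group mean (n = 2), with grey lines separating anti-apoptotic members, effectors and BH3-only members. BCL2 lies between 0.192 and 0.346 TPM in the C4-2B libraries and between 43.8 and 79.6 TPM in the NCI-H660 libraries.

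The makeup of the anti-apoptotic transcripts differed accordingly. MCL1 held 54.7% and 56.1% of the summed TPM of MCL1, BCL2L1 and BCL2 in the C4-2B control libraries and 54.6% and 57.0% in the shCtrl libraries, so its share overlapped between the lines. BCL2 held 0.259% and 0.169% in C4-2B control and 29.0% and 24.5% in shCtrl, while BCL2L1 held 45.0% and 43.7% against 16.4% and 18.5%. With shMYCL the BCL2 share was 18.7% and 18.9% and the MCL1 share 64.8% and 65.0%, both outside the range of the shCtrl libraries. Among the 5 BH3-only members PMAIP1 held 10.2% and 9.01% in C4-2B control, 24.9% and 25.5% in C4-2B MYCL, 66.2% and 68.0% in shCtrl and 70.0% and 71.2% in shMYCL. BCL2L11 held 21.6% and 20.3% in C4-2B control and 11.5% and 7.97% in C4-2B MYCL. These shares describe transcripts and not protein.

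**Figure D2:**
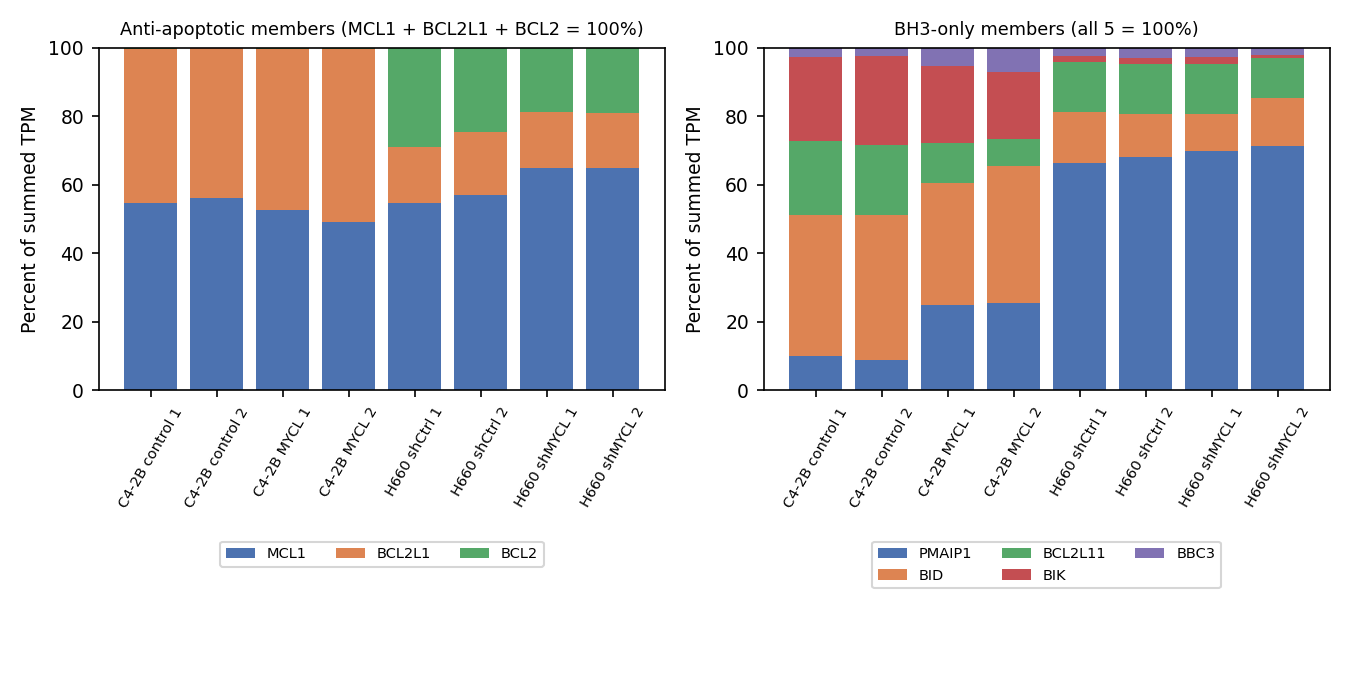
Stacked bars of the percent of summed TPM held by each anti-apoptotic member (left) and each BH3-only member (right) in each of the 8 libraries, where 1 and 2 are the library numbers. BCL2 is too small to see in the C4-2B bars, at 0.169% to 0.323%, and PMAIP1 takes the largest part of every NCI-H660 bar on the right, at 66.2% to 71.2%.

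The first comparison asked which members changed when MYCL was overexpressed in C4-2B. PMAIP1 and BBC3 rose and BCL2L11 fell, so that 3 of the 10 members, all of them BH3-only, were called by edgeR's quasi-likelihood test. A gene was called when its Benjamini-Hochberg adjusted p was below 0.05 and its log2 fold change reached 0.5 in either direction. Of the 16866 genes tested 19.9% were called, 11.8% higher and 8.12% lower. The median log2 fold change was 0.18 over the members and -0.0017 over all genes. A count of 3 among 10 does not by itself set the members apart from other genes. None of the 3 anti-apoptotic members and neither effector was called. In limma on log2(TPM + 1) the same 3 members were called, while the share of called genes that were higher was 33.5% against 59.2% in edgeR and the median of all genes was -0.14.

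PMAIP1 (ENSG00000141682.13, chr18:59899996-59904305 of GRCh38, plus strand) encodes NOXA, a BH3-only protein with a role in the integrated stress response. Its level was 5.82 and 5.95 CPM (read counts scaled by library size, after TMM normalization over the 8 libraries) in C4-2B control and 19.8 and 23.3 CPM in C4-2B MYCL. Both MYCL libraries were above both controls, a 3.67-fold rise (log2 fold change 1.88, SE 0.14, edgeR adjusted p = 4.25e-05). The call was made under each of 14 alternative settings.

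BBC3 (ENSG00000105327.19, chr19:47220822-47232766, minus strand) encodes PUMA, a BH3-only protein. It stood at 1.98 and 1.60 CPM in control and 5.64 and 6.10 CPM in MYCL libraries, which rest on 61 and 36 counts against 99 and 101 counts. The groups did not overlap, and the rise was 3.27-fold (log2 fold change 1.71, SE 0.26, edgeR adjusted p = 0.00139).

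BCL2L11 (ENSG00000153094.26, chr2:111119378-111168444, plus strand) encodes BIM, which FOXO factors are known to induce. Its level was 35.1 and 36.1 CPM in control and 23.9 and 20.9 CPM in MYCL libraries. Both MYCL libraries were below both controls and the transcript fell by 0.66 on the log2 scale (SE 0.10, edgeR adjusted p = 0.00129). Its call and that of BBC3 were lost in 1 of the 14 alternatives, limma on TPM without a filter on low values, with adjusted p of 0.066 and 0.0731. Of its exon bases 10.8% lie under the opposite-strand gene MIR4435-2HG, which had 180 to 332 counts in the C4-2B libraries, and whether strand was used in the counting is not given in the sources used here.

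The remaining members of C4-2B did not pass the test. BCL2 rested on 42 and 22 counts without and 35 and 27 counts with MYCL overexpression, and its log2 fold change of 0.62 (SE 0.39, 95% interval -0.25 to 1.50, edgeR adjusted p = 0.246) could not be told from 0 at this depth. MCL1 was at 201 and 204 CPM in control and at 193 and 179.7 CPM with MYCL (log2 fold change -0.11, 95% interval -0.28 to 0.05). BCL2L1 was at 107 and 103 CPM in control and at 109.8 and 116 CPM with MYCL, with a log2 fold change of 0.11 (95% interval -0.05 to 0.28). A change of more than 0.3 on the log2 scale was therefore outside the intervals of both anti-apoptotic transcripts. Of the BCL2L1 exon bases 41.3% are shared with the antisense gene ABALON, which had 0 to 26 counts per library.

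The effector BAX was at 21.4 and 18.2 CPM in control and at 19.2 and 17.1 CPM in MYCL libraries, which overlapped (log2 fold change -0.12, 95% interval -0.40 to 0.16). BAK1 was at 27.9 and 32.0 CPM in control and at 29.1 and 39.1 CPM with MYCL and also overlapped (log2 fold change 0.19, 95% interval -0.12 to 0.51). BID, which caspase-8 cleaves to link death receptors with mitochondria, was at 17.2 and 19.3 CPM against 20.6 and 23.8 CPM. Its groups did not overlap, but the log2 fold change of 0.29 (95% interval 0.03 to 0.55) missed both thresholds, with an edgeR adjusted p of 0.0816. BIK had a log2 fold change of 0.17 (95% interval -0.24 to 0.57).

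**Figure D3:**
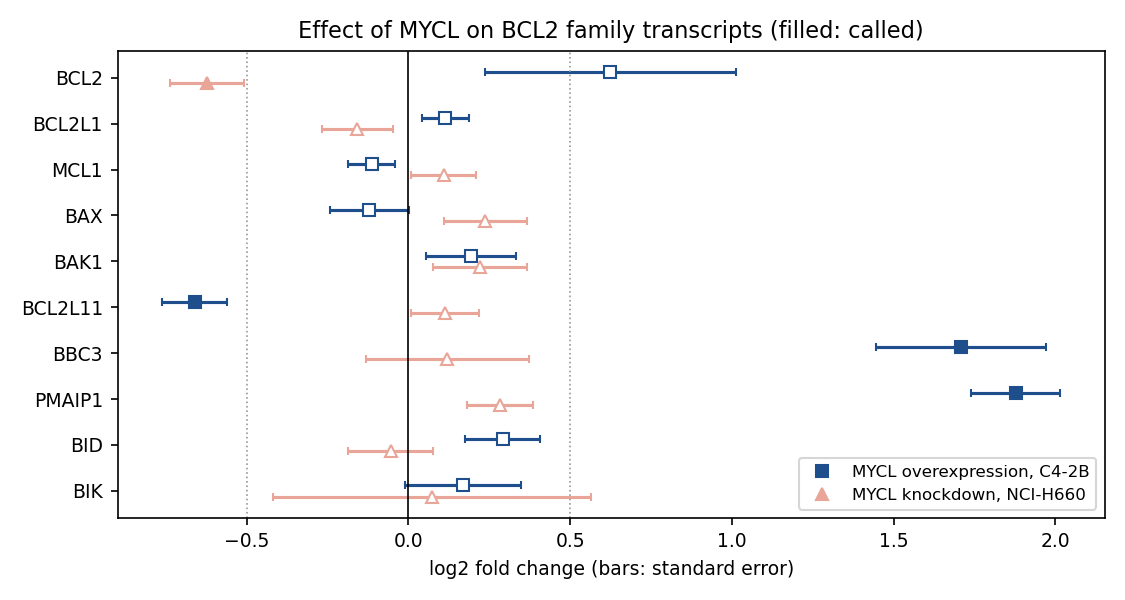
Log2 fold change of each member with MYCL overexpression in C4-2B (squares) and with MYCL knockdown in NCI-H660 (triangles), with bars for 1 standard error, filled symbols for called members and dotted lines at the fold change threshold of 0.5. PMAIP1 at 1.88 and BBC3 at 1.71 lie far to the right in C4-2B, and the only filled triangle is BCL2 at -0.62.

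The promoters of the 3 members called in C4-2B, and of BAX, whose window held the most E-boxes of the members searched, are shown because MYCL with its partner MAX binds the E-box CACGTG. Sequences are from RefSeq on GRCh38.p14, and 8 of the 10 members had at least 1 window of 250 bases before to 50 bases after the transcript start. Printed is the longest stretch of the 250 upstream bases free of annotated exons, 5′ to 3′ on the gene's strand, with CACGTG and the FOXO-type letters GTAAACA in capitals.
PMAIP1, chr18:59899746-59899995, plus strand: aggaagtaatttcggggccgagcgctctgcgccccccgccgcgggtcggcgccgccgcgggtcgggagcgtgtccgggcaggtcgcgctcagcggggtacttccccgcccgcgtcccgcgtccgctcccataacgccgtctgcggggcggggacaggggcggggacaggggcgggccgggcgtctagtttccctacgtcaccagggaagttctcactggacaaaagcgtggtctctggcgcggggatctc
BBC3, chr19:47232767-47232917, minus strand: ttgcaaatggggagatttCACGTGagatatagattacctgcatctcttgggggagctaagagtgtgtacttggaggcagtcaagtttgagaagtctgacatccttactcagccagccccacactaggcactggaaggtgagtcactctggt
BCL2L11, chr2:111120664-111120913, plus strand: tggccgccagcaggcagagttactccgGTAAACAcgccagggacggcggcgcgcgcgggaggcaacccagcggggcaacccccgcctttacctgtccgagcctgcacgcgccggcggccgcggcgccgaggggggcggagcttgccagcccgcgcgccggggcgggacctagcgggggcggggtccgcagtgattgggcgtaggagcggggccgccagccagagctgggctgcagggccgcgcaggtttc
BAX, chr19:48954625-48954814, plus strand: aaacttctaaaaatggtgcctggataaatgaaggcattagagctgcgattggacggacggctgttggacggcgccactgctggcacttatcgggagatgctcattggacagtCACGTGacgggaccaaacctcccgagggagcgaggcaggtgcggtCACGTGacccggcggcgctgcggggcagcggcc

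Both strands were searched for CACGTG, for GTAAACA and for TGATGNAA, the composite element of ATF4 and CHOP (DDIT3). No matches of different motifs overlapped in these windows. CACGTG was present in 7.26% of the 35116 RefSeq windows, GTAAACA in 3.42% and TGATGNAA in 3.62%. The BAX window held 4 E-boxes, starting 138, 93, 45 and 14 bases before the transcript start, of which the stretch above shows 2, and BAX was not called in either MYCL comparison. BBC3 held 1, starting 232 bases before the start. Of the 5 BID windows 2 overlapping ones held 1 match, which was the same site in both. PMAIP1, BCL2, BCL2L1, BAK1 and BCL2L11 held none in their windows. BCL2L11 held 1 GTAAACA starting 223 bases before its start, and no member's window held TGATGNAA. The upstream stretches of PMAIP1 and BCL2L11, of 250 bases each, were rich in G and C, at 72.8% and 76.8%. The median over the 250 upstream bases of all windows was 58%. That of BBC3 was at 49.0% over its printed 151 bases only, a shorter span than that of the median. A match describes the letters only.

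The second comparison asked the same in NCI-H660 after knockdown of MYCL. BCL2 fell, and no member rose, so that 1 of 10 members was called, where 16.2% of the 16980 genes tested were called, 7.18% higher and 8.99% lower. The share of members called was thus no higher than that of all genes. The median log2 fold change was 0.11 over the members and -0.0029 over all genes. BCL2 (ENSG00000171791.14, chr18:63123346-63320128, minus strand), whose protein product blocks BAX and BAK1, stood at 299 and 239 CPM in shCtrl and at 174 and 177 CPM in shMYCL libraries, from 5347 and 4686 counts against 2783 and 2917. Both shMYCL libraries lay below both shCtrl libraries, and BCL2 fell by 0.62 on the log2 scale (SE 0.12, edgeR adjusted p = 0.00118). The size rested in part on shCtrl replicate 1, the highest library. Without it the log2 fold change was -0.45, with an edgeR adjusted p of 0.00394, and the call was lost on the fold change threshold. Leaving out any 1 library gave log2 fold changes from -0.77 to -0.45.

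PMAIP1 was at 119 and 124 CPM in shCtrl and at 145 and 150.1 CPM in shMYCL. The groups did not overlap, with a log2 fold change of 0.28 (95% interval 0.07 to 0.50, edgeR adjusted p = 0.0535), short of both thresholds. BCL2L11 was at 62.6 and 65.9 CPM in shCtrl and at 70.5 and 68.7 CPM in shMYCL, with a log2 fold change of 0.11 (95% interval -0.11 to 0.34). BBC3 was at 3.97 and 5.16 CPM against 5.30 and 4.66 CPM and overlapped, with a log2 fold change of 0.12 (95% interval -0.41 to 0.65). The intervals of all 3 BH3-only genes called in C4-2B thus reached neither 1 nor -1 on the log2 scale in NCI-H660.

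MCL1 was at 305 and 301 CPM in shCtrl and at 323 and 332 CPM in shMYCL, with a log2 fold change of 0.11 (95% interval -0.10 to 0.32). BCL2L1 was at 57.0 and 61.4 CPM against 53.2 and 53.2 CPM, with a log2 fold change of -0.16 (95% interval -0.39 to 0.07). Neither anti-apoptotic member beside BCL2 passed the test. BAX, at 20.6 and 20.4 CPM against 23.4 and 25.1 CPM, had a log2 fold change of 0.24 (95% interval -0.03 to 0.51). BAK1, at 13.4 and 15.0 CPM against 16.1 and 17.1 CPM, had one of 0.22 (95% interval -0.09 to 0.53). Neither effector passed the test, with edgeR adjusted p of 0.19 and 0.29. BID was at 19.2 and 19.6 CPM against 19.0 and 18.4 CPM, with a log2 fold change of -0.06 (95% interval -0.33 to 0.22). BIK rested on 13 to 29 counts per library, and its 95% interval of -0.97 to 1.11 left its direction undetermined.

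**Figure D4:**
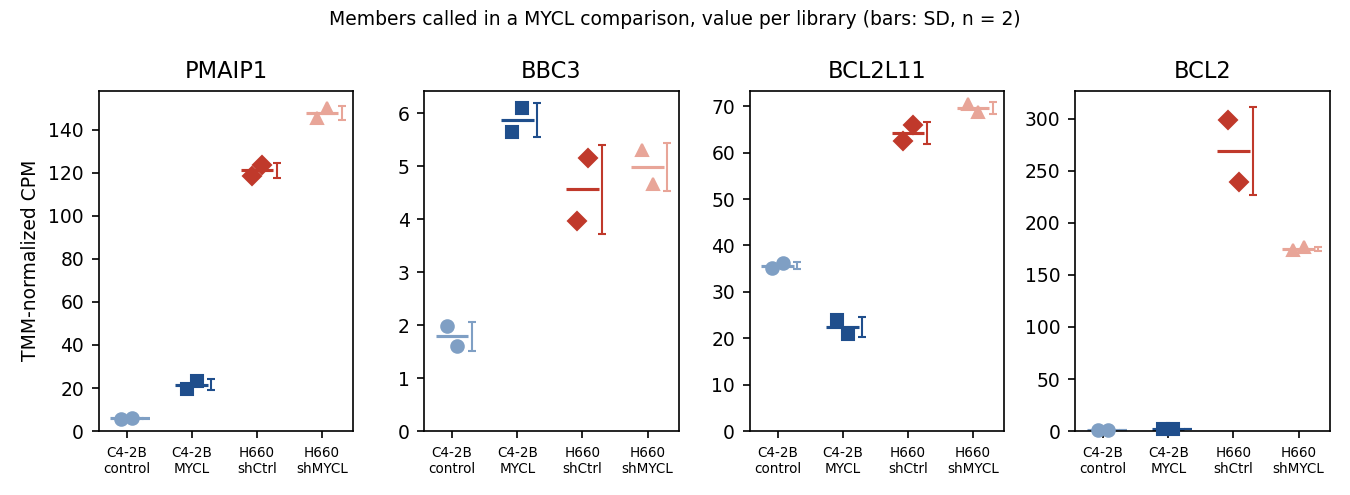
TMM-normalized CPM per library for the 4 members called in at least 1 line, on linear axes from 0, with a horizontal line at the group mean and a bar of 1 SD (n = 2). PMAIP1 rises from 5.82 and 5.95 CPM to 19.8 and 23.3 CPM in C4-2B, and the shCtrl libraries of BCL2 are spread over 239 to 299 CPM.

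Whether the effect of MYCL differed between the lines was examined with an interaction term over all 8 libraries. Each effect was taken as high minus low MYCL, so that the knockdown enters with its sign turned, and the effect in NCI-H660 was subtracted from that in C4-2B. PMAIP1, BBC3 and BCL2L11 were called, 3 of 10 members, where 17.9% of the 19605 genes tested were called, 9.59% higher and 8.33% lower. These values share their libraries with the comparisons within the lines. The interaction of PMAIP1 was 2.16 (SE 0.15, edgeR adjusted p = 2.63e-06), that of BBC3 1.82 (SE 0.37, edgeR adjusted p = 0.00443) and that of BCL2L11 -0.55 (SE 0.14, edgeR adjusted p = 0.0138). The call of BCL2L11 was lost without C4-2B control replicate 2 (adjusted p = 0.0597), without C4-2B MYCL replicate 2 (adjusted p = 0.0736) and in each of the 4 fits of TPM, whose adjusted p ranged from 0.0545 to 0.117.

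For BCL2 the difference was -0.02 (95% interval -0.79 to 0.75). The fall of BCL2 after knockdown was therefore not shown to differ from the value in C4-2B, where few counts were available. The difference was -0.0082 for MCL1 (95% interval -0.25 to 0.24) and -0.05 for BCL2L1 (95% interval -0.31 to 0.22). BAX had a difference of 0.11 (95% interval -0.27 to 0.49) and BAK1 one of 0.41 (95% interval -0.04 to 0.86). BAK1 was called only when C4-2B MYCL replicate 1 was left out, at 0.62 with an edgeR adjusted p of 0.0476. For BID and BIK the differences were 0.23 and 0.24, with intervals that included 0. In limma on log2(TPM + 1) 35.7% of called genes were higher in the interaction against 53.5% in edgeR, and the median of all genes was -0.11.

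The last comparison set the control libraries of both lines side by side. The vectors and the cultures differ with the line, and these cannot be told apart. Of the 10 members 5 were higher and 3 lower in NCI-H660 shCtrl than in C4-2B control, where 69.8% of the 19605 genes tested were called, 36.5% higher and 33.3% lower, so that a call here is what most genes show. BCL2 was at 1.37 and 0.977 CPM in C4-2B control and at 299 and 239 CPM in shCtrl. The libraries were far apart, with a 224-fold difference (log2 fold change 7.80, SE 0.17, edgeR adjusted p = 3.02e-13). PMAIP1, at 5.82 and 5.95 CPM against 119 and 124 CPM, was 20.6-fold higher (log2 fold change 4.36, SE 0.11, edgeR adjusted p = 8.70e-13). BIK was lower, at 6.34 and 7.11 CPM against 1.23 and 1.22 CPM (log2 fold change -2.44, SE 0.32).

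Smaller differences were found for the other called members. BBC3 and BCL2L11 were higher in NCI-H660, by 1.34 (SE 0.27) and 0.85 (SE 0.10) on the log2 scale, and MCL1 by 0.58 (SE 0.08). BAK1 and BCL2L1 were lower, with log2 fold changes of -1.07 (SE 0.15) and -0.82 (SE 0.09). BAX, at 0.05 (95% interval -0.22 to 0.31), and BID, at 0.09 (95% interval -0.17 to 0.35), were not called.

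The scale mattered in this comparison. On log2(TPM + 1) the median of all genes was shifted by 0.52 toward NCI-H660. Mitochondrial transcripts took 18.9% to 19.1% of the TPM in C4-2B and 9.79% to 12.1% in NCI-H660, and their part in this shift was not tested. On the log2(TPM + 1) scale limma called 7 members higher and 1 lower, and 71.1% of the called genes were higher against 52.2% in edgeR. BAX and BID were then called, at 0.62 and 0.51, which is close to the shift of the median, and BCL2L1 and BAK1 were no longer called, at -0.17 and -0.44. With each library centred on its median, the median log2 difference of all genes was -0.22 and 40.8% of the called genes were higher. Centring thus moved the values past 0, toward C4-2B. On that scale 4 members were called higher and 3 lower, MCL1 being no longer called at 0.43. BCL2, PMAIP1, BCL2L11 and BBC3 were called higher and BIK lower on all these scales. The size for BCL2 depended on the pseudocount, at 5.81 on log2(TPM + 1) and 7.66 on log2(TPM + 0.1), since a pseudocount understates the change of a transcript near 0.

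**Figure D5:**
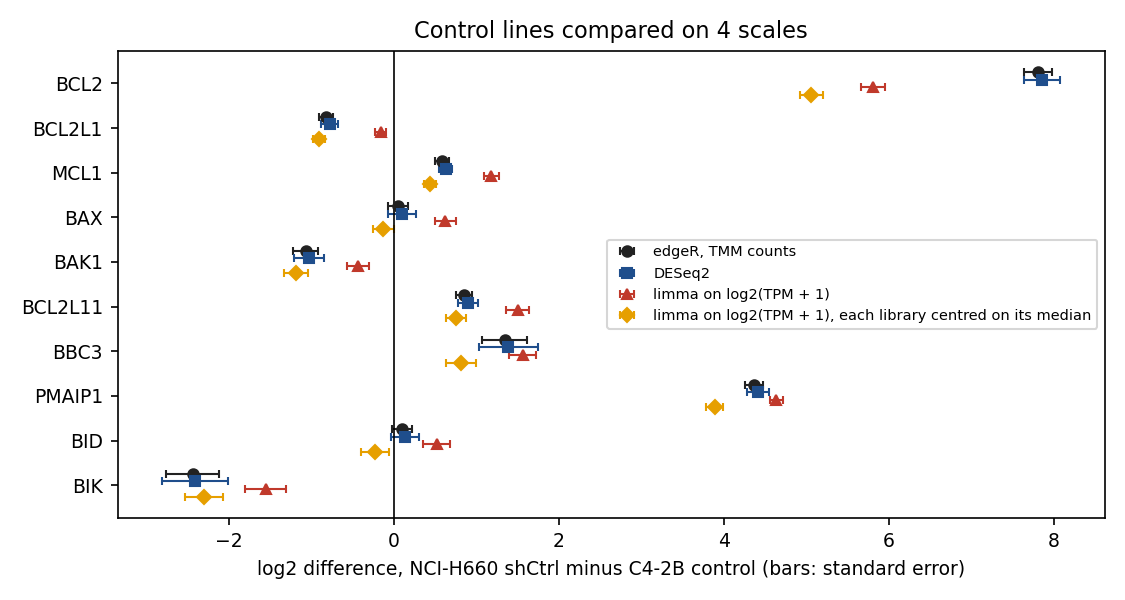
Log2 difference between NCI-H660 shCtrl and C4-2B control for each member under edgeR, DESeq2, limma on log2(TPM + 1) and the same with each library centred on its median, with bars for 1 standard error. For most members the triangles of uncentred TPM lie to the right of the other symbols, whereas for BCL2, at 0.242 TPM in C4-2B, both TPM symbols lie to the left.

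Genes around the members in the apoptosis pathway were followed in 6 lists, for which log2 fold changes are given. Among 13 other BCL2 family genes, 10 were tested in C4-2B, where 4 rose and 1 fell with MYCL, beside 11.8% of all genes called higher and 8.12% lower. The 4 were BNIP3L (0.84, SE 0.07), BNIP3 (0.74, SE 0.08), both receptors of mitophagy, BOK (0.54, SE 0.10) and the BH3-only HRK, whose log2 fold change of 2.60 (SE 0.62) rested on 12 and 2 counts against 25 and 28. The BH3-only BMF fell by 0.83 on the log2 scale (SE 0.25). In NCI-H660, where 7.18% of all genes were called higher and 8.99% lower, 9 were tested, of which BAD rose by 0.63 (SE 0.15) and BNIP3L and BNIP3 fell by 1.08 (SE 0.10) and 0.52 (SE 0.11) after knockdown.

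Of 7 transcription factors with known BH3-only targets, DDIT3 (CHOP) and ATF4, which act in the integrated stress response, rose in C4-2B MYCL. Their log2 fold changes were 4.13 (SE 0.14) and 0.56 (SE 0.11), and E2F1, an activator of S-phase genes, fell by 0.81 (SE 0.10). Of all genes 11.8% were called higher and 8.12% lower there. FOXO3 and FOXO1 were not called in C4-2B, with log2 fold changes of 0.44 (SE 0.09) and 0.45 (SE 0.18) and edgeR adjusted p of 0.00533 and 0.0831. Their part in the fall of BCL2L11 was not tested. In NCI-H660 TP73 rose by 0.85 (SE 0.11) and FOXO1 fell by 0.74 (SE 0.21) after knockdown, beside 7.18% of all genes called higher and 8.99% lower. In the interaction DDIT3 (3.83, SE 0.21), TP73 (1.09, SE 0.25) and ATF4 (0.82, SE 0.17) were called higher and E2F1 (-0.56, SE 0.17) lower.

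The lists that follow stand beside 11.8% of all genes called higher and 8.12% lower in C4-2B, and 7.18% and 8.99% in NCI-H660. Among 12 genes of death receptors, ligands and adaptors, 9 were tested in C4-2B. There the TRAIL ligand TNFSF10 (2.83, SE 0.36), the TRAIL receptor TNFRSF10B (0.74, SE 0.08) and TNFRSF1A (0.59, SE 0.08) rose and none fell. Of 10 tested in NCI-H660, FAS fell by 1.25 (SE 0.27) and TNFSF10 by 0.81 (SE 0.18) after knockdown, and none rose. In C4-2B 1 of the 14 caspase and apoptosome genes rose, CASP10 by 1.23 (SE 0.38), and 2 fell, CASP2 by 0.62 (SE 0.09) and CASP6 by 0.57 (SE 0.18). In NCI-H660 CASP2 rose by 1.03 (SE 0.12) and CASP6 fell by 0.56 (SE 0.14) after knockdown. Of 7 inhibitors of apoptosis tested, BIRC3 rose by 1.24 (SE 0.13) in C4-2B MYCL, and BIRC3 and NAIP fell by 0.60 (SE 0.16) and 0.65 (SE 0.18) after knockdown. None of 6 genes of MCL1 protein turnover was called in either line, where 19.9% of all genes were called in C4-2B and 16.2% in NCI-H660. MCL1 itself was not called either. Of the 6, HUWE1 had an edgeR adjusted p below 0.05 in both lines but missed the fold change threshold. Its log2 fold change was -0.29 (SE 0.07) in C4-2B MYCL and -0.495 (SE 0.12) after knockdown. In the interaction HUWE1 was called, at -0.79 (SE 0.16).

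The median log2 fold change in C4-2B was 0.45 over the other family genes, 0.44 over the transcription factors and 0.27 over the death receptor genes, and lay between -0.05 and 0.03 over the other lists, beside -0.0017 over all genes. In NCI-H660 the list medians ran from -0.40, over the inhibitors of apoptosis, to 0.25, over the transcription factors, beside -0.0029 over all genes. In the interaction, beside 9.59% of all genes called higher and 8.33% lower, 1 gene was called higher and 1 lower of 10 other family genes, 3 and 1 of 7 transcription factors, 3 and 0 of 11 death receptor genes, 2 and 2 of 14 caspase and apoptosome genes, 1 and 1 of 7 inhibitors and 0 and 1 of 6 turnover genes.

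Between the control lines more of these genes were called, as of all genes. Of the 10 other family members tested 2 were higher and 5 lower in NCI-H660, among them BMF, higher by 4.09 (SE 0.13), and BCL2L12, lower with a log2 fold change of -3.38 (SE 0.16). BCL2L14 had 133 and 134 counts in C4-2B control and 0 in both shCtrl libraries, which makes it at least 28.9-fold lower against 3 counts per library.

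The genes most like each of the 3 members called in the interaction were taken by Pearson correlation of log2 CPM over the 8 libraries, among 10172 or 10173 genes of sufficient level. These points fall into 2 cell lines and share library preparation and depth with every gene, so a high value can come from the difference between the lines alone. For PMAIP1 the nearest genes were TAP1, FYN, PPP1R15A, L1CAM and NDRG4, all at r of 0.998. For BBC3 they were BOD1, ZNF165, SPSB3, SQSTM1 and WDR45B, with r from 0.960 to 0.972. For BCL2L11 they were MCM4, HAUS3, MTFR2, DNA2 and E2F1, with r from 0.996 to 0.999.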

How the data were processed

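The authors deposited estimated counts per gene, made from paired-end poly(A) reads without scaling between libraries, of which 34.4% of non-zero values were not whole. They also deposited TPM values for 65535 genes, fewer than in the count table, with sums of 997224 to 998165 per library. TPM medians and shares of called genes cover only these genes. By the study's methods, TPM are counts divided by Ensembl gene lengths and scaled. The values do not follow 1 fixed length per gene. BID had 304 counts in both shMYCL libraries but 23.5 and 31.0 TPM, while BAK1 had 258 and 282 counts and 14.3 and 15.3 TPM. TPM levels, orders and shares therefore depend on lengths that differed between libraries. The build was hg38 per the labels. The aligner, the counting tool and the use of strand are not given in the sources used here. Counts were rounded and fitted in edgeR 4.0.16 (R 4.3.3) with TMM normalization, filterByExpr and the quasi-likelihood test, for each line alone and for all 4 groups in the interaction and line comparisons. Standard errors were derived from the test statistic. The biological coefficient of variation came to 0.083 for C4-2B, 0.097 in NCI-H660 and 0.093 over all libraries, and no pair of replicates agreed within sampling noise. Alternatives used DESeq2 1.42.0 and limma 3.58.1 (genes at 1 TPM or more in 2 libraries, unless stated). Scripts were tested on simulated data. The members, pathway lists and tests were chosen with earlier results of these data known. All 10 members are named. From the lists, called genes were eligible, at most 5 per list and comparison by smallest adjusted p. Positions and overlaps are from GENCODE 44. Results for some genes are not reported here.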

Additional observations from a re-analysis of the deposited data

Results flagged for a closer look

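The effect of high against low MYCL differed between the lines for 3 members by the interaction test of edgeR. It was larger in C4-2B for PMAIP1 (2.16 on the log2 scale) and BBC3 (1.82) and lower for BCL2L11 (-0.55). None of the 3 was called in NCI-H660. Overexpression and knockdown span different MYCL levels, so the line and the kind of perturbation cannot be told apart. Groups of 2 libraries were not searched for single outlying libraries.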

How the results depend on the processing

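Counts of calls stayed within 1.5 times the reported ones in 124 of 142 recomputations of the 8 counts, and the direction of each called member was the same under every alternative that gave it a value. The exceptions are grouped here, and their cause was not tested except where the construction states it. Limma on log2(TPM + 1) without a filter on low TPM called 1 member and 1940 genes in C4-2B, 0 members and 1 gene in NCI-H660 (BCL2 at an adjusted p of 0.165), and 1 member and 1898 genes in the interaction. A minimum log2 fold change of 1 left 1411 genes in C4-2B, 0 members and 1022 genes in NCI-H660, 1666 genes in the interaction and 5 members between the control lines, and no minimum gave 5895 genes in C4-2B and 4204 in NCI-H660. In NCI-H660 the filtered fits called 1702 genes on log2(TPM + 1), 1600 on log2(TPM + 0.1) and 1692 with each library centred on its median, an alternative added after the data were seen. Requiring 10 counts in every library left 8512 genes called between the lines, among fewer genes tested.

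Reversed signs were found among uncalled values near 0. On the log2(TPM + 1), log2(TPM + 0.1) and unfiltered scales the log2 fold change of BCL2L1 in C4-2B was -0.0032, -0.0032 and -0.0032. In NCI-H660 that of BBC3 was -0.00028, -0.00045 and -0.00028, of BID 0.027, 0.028 and 0.027, and of BIK -0.044, -0.081 and -0.044, and the interaction of BIK was -0.022, -0.056 and -0.022. With centred TPM the values were -0.0053 for BBC3, 0.022 for BID and -0.049 for BIK in NCI-H660, and -0.13 for BAX and -0.23 for BID between the lines. The interaction of BCL2 was 0.0031 in DESeq2, and that of MCL1 was 0.011 in DESeq2, 0.011 with relative log expression size factors and 0.0092 with 10 counts in every library.

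Leaving out each library in turn, where a lone library is assumed to vary like the other groups, gave 0 to 1 members called in NCI-H660 and 2 to 4 in the interaction. Ranges that crossed 0 were -0.031 to 0.40 for BAK1 in C4-2B, -0.050 to 0.33 for BBC3 and -0.63 to 0.56 for BIK in NCI-H660, -0.073 to 0.18 for BAX between the lines, and in the interaction -0.20 to 0.26 for BCL2, -0.11 to 0.0072 for BCL2L1, -0.047 to 0.057 for MCL1 and -0.48 to 0.71 for BIK.

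The replicate numbers were not taken as pairs, since deviations of same-numbered libraries correlated at 0.026 in C4-2B and 0.021 in NCI-H660. A replicate block called 3 members in C4-2B, 1 in NCI-H660, 3 in the interaction and 8 between the lines, as without it, and turned the sign of BIK in NCI-H660 (-0.00095) and of the BCL2 interaction (0.0094). Depth limits BCL2 in C4-2B and BIK in NCI-H660 most, and BCL2 in C4-2B was below the filter of the TPM fits.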
